A study of Bos taurus with 16 samples.

Results

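The miR-181 family is a group of microRNAs, short RNAs of which one strand is loaded into an Argonaute protein and guides it to partly complementary sites in messenger RNAs, which are then translated less or degraded. Its members are recognised by a shared seed, the stretch near the 5′ end that pairs with targets. Here the family was measured by 3 probes, chosen by name from the 204 miRNA probes of the deposited table: miR-181a-5p, miR-181c-5p, and a probe named miR-181b-5p+miR-181d-5p that counts both of those miRNAs together. The 3 probes therefore cover 4 mature miRNAs. In the RefSeq gene table of the cattle assembly ARS-UCD2.0 the family has 6 genes, which lie as 3 neighbouring pairs: MIR181A-1 with MIR181B-1, MIR181A-2 with MIR181B-2, and MIR181C with MIR181D. Each pair holds a gene of a and b or of c and d, so the shared probe can count products of all 3 pairs. In mammals, neighbouring miRNA genes of this family are known to be made from shared primary transcripts. No source used here gives the panel's probe design or a genome build, and no coordinates are printed.

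The family is best known from the immune system and the vasculature. miR-181a sets the sensitivity of T cell receptor signalling in mouse thymocytes, and in mouse granulosa cells, the follicular cells from which part of the corpus luteum derives, it targets an activin receptor. miR-181b restrains inflammatory NF-κB signalling in endothelial cells of human and mouse, miR-181c acts on a mitochondrially encoded transcript in rat heart cells, and miR-181d targets the DNA repair gene MGMT in human glioma cells.

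The samples were corpora lutea, progesterone-secreting glands built from the ovulated follicle, from cattle that had been bred both naturally and by insemination and were found to be pregnant. There were 16 samples, 4 at each of day 14, day 17, day 20 and day 23 after breeding. No animal carried a further treatment, and non-pregnant animals, which could separate pregnancy from the age of the gland, were not among the samples. Levels came from NanoString, a method that counts individual colour barcodes bound to the miRNAs with no amplification of the RNA, in 2 runs. Each run held 8 samples, 2 of each day. Replicates 1 and 2 of every day were in run 1 and replicates 3 and 4 in run 2. The labels do not say outright that each sample is another animal, and p-values measure the spread between these samples.

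All values are normalized counts as the authors deposited them. Column totals lay at 175197 to 331164 in run 1, below those of run 2 at 373847 to 536516. Within each column, values below 150 lay on evenly spaced steps with an offset, and 1 step was worth 0.665 to 2.92 normalized counts. The largest step was that of day 23 replicate 4, where the next largest was 1.77. The step is the finest difference a column can show: miR-181a-5p stood at 3173 to 12885 steps, the miR-181b-5p+miR-181d-5p probe at 191 to 505 and miR-181c-5p at 78.9 to 244. The precision of the low probes is thus coarser than that of miR-181a-5p. The table has no control probes, and the 38 probes whose miRNA has no bovine gene of that name or number served as a reference for low signal. Their median per sample was 124 to 258 normalized counts in run 1 and 40.4 to 88.8 in run 2. No marker of luteal cells themselves was among the lists used, so the labelled tissue was checked only against the cell type lists given further on.

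miR-181a-5p was by far the strongest of the 3 probes. It averaged 9458 ± 5499 normalized counts (SD, n = 16), the 8th highest mean of all 204 probes. In single samples it ranked between 4 and 16. The miR-181b-5p+miR-181d-5p probe averaged 359 ± 159 (mean rank 79) and miR-181c-5p 154 ± 82.0 (mean rank 123). The order miR-181a-5p, then miR-181b-5p+miR-181d-5p, then miR-181c-5p held in 16 of 16 samples. Across samples the ranges of the lower probes overlapped, at 183 to 699 and 72.2 to 396. miR-181a-5p made up 91.9% to 96.9% of the summed signal of the family and 1.36% to 4.76% of a column's total. How strongly each probe responds to its own miRNA is not known, and signal that passes between probes of such similar miRNAs was not measured, so the order is one of probe signal.

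The lower probes lay near the low-signal reference in run 1. miR-181c-5p was below the median of the probes without a bovine gene in 6 of 8 run 1 samples, and the miR-181b-5p+miR-181d-5p probe in 1 of 8. In run 2 both were above it in every sample, miR-181c-5p by 1.95- to 4.46-fold and the miR-181b-5p+miR-181d-5p probe by 5.32- to 16.6-fold. miR-181a-5p exceeded that median at least 11.9-fold in every sample of both runs. These 38 probes are no negative controls: 1 of them, miR-4454+miR-7975, named here after its values were seen, exceeded miR-181a-5p in 13 of 16 samples. How much of the low probes' signal was background was not tested.

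miR-181a-5p had its highest mean and its highest single values on day 23, a difference from day 14 that did not pass the adjusted test. On day 14 the 4 samples held 3077 and 5544 normalized counts in run 1 and 5491 and 10745 in run 2. On day 17 they held 6515 and 5984 in run 1 and 13130 and 6113 in run 2. Of these 8 samples 5 lay between 5491 and 6515, and on each day 1 run 2 sample stood well above the other 3. On day 20 the values were 5037 and 6727 in run 1 and 12927 and 10619 in run 2. On day 23 they were 8856 and 15765 in run 1 and 9389 and 25404 in run 2. Both day 23 samples of run 1 lay above all 6 earlier samples of that run, whereas in run 2 the lower day 23 sample was below a day 14 sample, a day 17 sample and both day 20 samples.

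**Figure D1:**
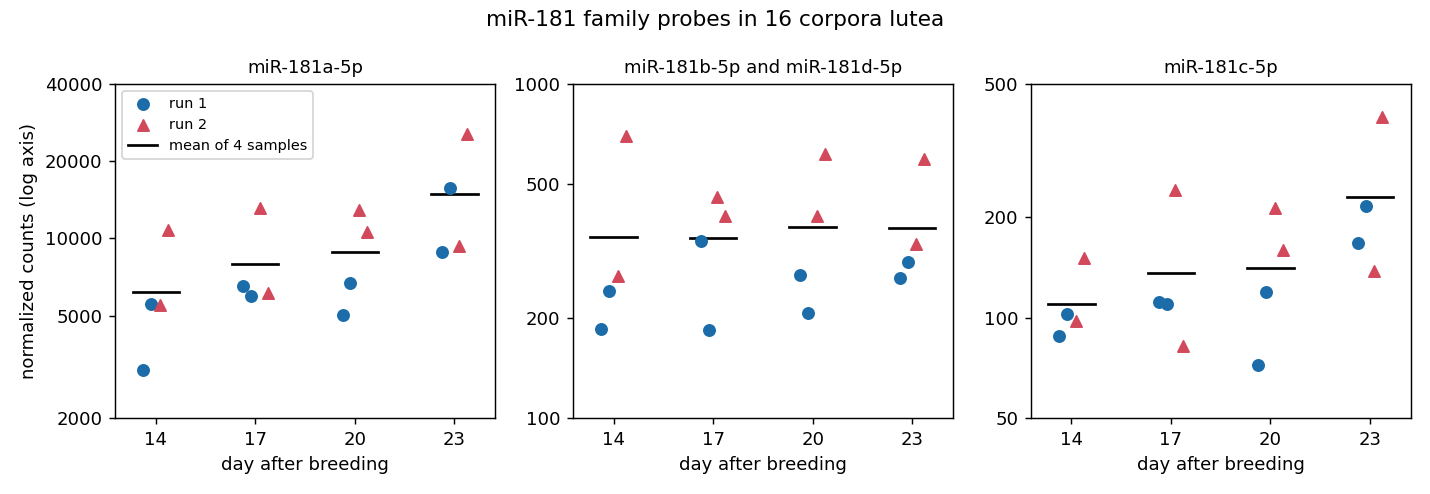
Normalized counts (log axis) of the 3 miR-181 family probes against day after breeding. Each point is 1 of 16 samples, blue circles for run 1 and red triangles for run 2, and bars are means of the 4 samples of a day; miR-181a-5p has its highest mean, 14854, on day 23, while the means of the miR-181b-5p+miR-181d-5p probe stay between 345 and 373.

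Day 14 had a mean miR-181a-5p level of 6214 ± 3232 (SD, n = 4 each day), day 17 of 7935 ± 3470, day 20 of 8828 ± 3596 and day 23 of 14854 ± 7702. With run held, day 23 exceeded day 14 by 1.26 log2 units, or 2.40-fold (SE 0.33, 95% interval 0.57 to 1.95, limma adjusted p = 0.0810 over 204 probes). This did not pass the adjusted threshold of 0.05. It was the highest upward difference among all 204 probes. Run 1 samples averaged 4311 on day 14 and 12311 on day 23, a 2.86-fold higher level, and run 2 samples 8118 and 17397, a 2.14-fold higher level. The run 2 mean of day 23 leans on replicate 4, at 25404, the column with the largest step. Counted in steps, the run 2 samples stood at 4440 and 6564 on day 14, 12161 and 7659 on day 17, and 7139 and 8712 on day 23. Steps are not scaled between columns, so they also vary with the depth of a column. As a share of its column's total, day 23 replicate 4 was the highest of run 2 at 4.74%, and day 20 replicate 3 was next at 3.46%. The call was made, with a log2 difference of 1.58 and adjusted p = 0.0069, without day 23 replicate 3, and with 1.47 and 0.0313 without day 14 replicate 4. No other single sample left out gave it. With run 1 alone the difference was 1.52 (adjusted p = 3.1e-04) and with run 2 alone 1.01 (adjusted p = 0.502).

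As a straight line over the days, miR-181a-5p had a slope of 0.131 log2 units per day (SE 0.034, 95% interval 0.061 to 0.201, limma adjusted p = 0.0731), again the steepest upward slope of the 204 probes and not called. It was called without day 14 replicate 4 (0.151, adjusted p = 0.0247), day 17 replicate 3 (0.136, adjusted p = 0.0457), day 20 replicate 1 (0.136, adjusted p = 0.0489) or day 23 replicate 3 (0.156, adjusted p = 0.0261). An exact two-sided permutation of day labels within runs gave an unadjusted p = 0.0040 for this slope, over 6350400 arrangements. For day 23 against day 14 the same exact permutation gave p = 0.111, where its 36 arrangements cannot go below 0.0556. The slope was 0.148 in run 1 alone (adjusted p = 0.0316) and 0.114 in run 2 alone (adjusted p = 0.323). The difference in slope between the runs was -0.035 per day (95% interval -0.174 to 0.105, limma adjusted p = 0.731), so a difference between runs was not shown.

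No pair of neighbouring days passed the adjusted test for miR-181a-5p. Day 17 minus day 14 was 0.41 (95% interval -0.28 to 1.10) and day 20 minus day 17 was 0.14 (95% interval -0.55 to 0.83). Day 23 minus day 20 was 0.71 (95% interval 0.02 to 1.40, limma adjusted p = 0.811) and day 23 minus day 17 was 0.85 (95% interval 0.16 to 1.54, adjusted p = 0.363). The intervals are those of each comparison alone, unadjusted for the 204 probes, and comparisons that share a day share its 4 samples.

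miR-181c-5p, the weakest probe, had a pattern over days like that of miR-181a-5p. Its values were 87.8, 102, 97.5 and 150 on day 14 for replicates 1 to 4. They were 111, 110, 241 and 82.3 on day 17, and 72.2, 119, 212 and 160 on day 20. On day 23 they were 167, 215, 137 and 396, so that 3 of these 4 samples lay above all day 14 samples and the remaining value, of replicate 3, lay below day 14 replicate 4. Daily means were 109 ± 27.8 (SD, n = 4), 136 ± 71.2, 141 ± 59.4 and 229 ± 116. Day 23 exceeded day 14 by 0.97 log2 units, or 1.96-fold (SE 0.35, 95% interval 0.24 to 1.70, limma adjusted p = 0.124), and was not called. The difference was 0.99 in run 1 alone (adjusted p = 0.0351) and 0.94 in run 2 alone (adjusted p = 0.535), and without day 23 replicate 3 it was 1.28 (adjusted p = 0.0449). The slope of miR-181c-5p was 0.099 per day (SE 0.036, limma adjusted p = 0.0953, unadjusted exact permutation p = 0.0256). The 6 run 1 samples below the low-signal reference are those of days 14, 17 and 20, and both run 1 samples of day 23 were above it, at 1.12 and 1.66 times that median. The reference itself moved in run 1: it was 258 and 184 on day 14, 124 and 160 on day 17, 132 and 142 on day 20, and 150 and 130 on day 23. The step from day 14 to day 23 relative to it therefore also holds a fall of the reference.

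The miR-181b-5p+miR-181d-5p probe had similar means on all 4 days. Its values were 185, 240, 266 and 699 on day 14 for replicates 1 to 4, and 338, 183, 457 and 403 on day 17. They were 268, 206, 403 and 614 on day 20, and 263, 292, 331 and 597 on day 23. Within every day at least 1 run 2 sample stood above both run 1 samples, and over both runs the days overlapped. In run 1 alone both day 23 samples lay above both day 14 samples, with means of 277 and 213, and in run 2 day 23 was higher in 2 of 4 pairs of samples, with means of 464 and 482. Daily means were 347 ± 237 (SD, n = 4), 345 ± 118, 373 ± 180.8 and 371 ± 154. Day 23 minus day 14 was 0.22 log2 units (SE 0.31, 95% interval -0.42 to 0.86, limma adjusted p = 0.785), and the slope was 0.024 per day (SE 0.031, 95% interval -0.039 to 0.087, adjusted p = 0.754). These intervals reach both below and well above 0, so an absence of change was not shown. The sign of the difference turned to -0.084 when each sample was scaled to the same total, a scaling that moved the median of all 204 probes by -0.30 for day 23 against day 14. Other scalings raised the difference. It was 0.30 with samples centred on the median probe (limma adjusted p = 0.583) and 0.44 with quantile normalization (limma adjusted p = 0.323).

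**Figure D2:**
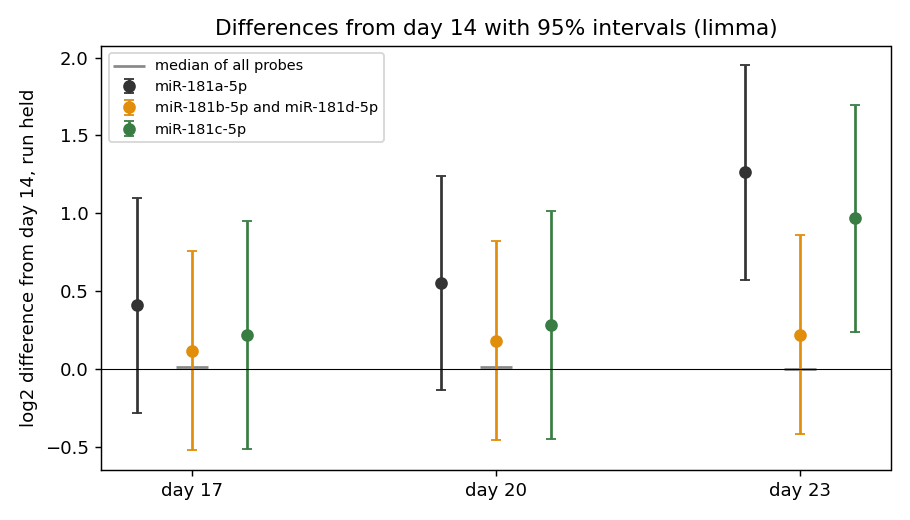
Log2 difference of day 17, day 20 and day 23 from day 14 for the 3 miR-181 family probes, with run held. Points are limma estimates, bars are 95% intervals, and grey dashes are the median of all 204 probes. On day 23 the intervals of miR-181a-5p and miR-181c-5p lie above 0 and that of the miR-181b-5p+miR-181d-5p probe spans it; no adjusted p is under 0.05.

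Against the whole panel, the members read as follows. For day 23 against day 14, 3 of 3 members had a value above 0, against 50% of all probes, and 2 of 3 were higher at an unadjusted p under 0.05, against 13.2%. Their median difference was 0.97, against 0.00096 for all 204 probes. At the adjusted threshold 0 of 3 were called by limma, where 0.49% of the panel was, the single probe miR-432-5p, which fell by 1.32 log2 units. For the slope, 3 of 3 were above 0 against 52%, 2 of 3 were upward at an unadjusted p under 0.05 against 14.7%, and 0 of 3 were called against 0.49%. Their median slope was 0.099 per day, against 0.00090 for all probes. For day 23 against day 17, miR-181a-5p and miR-181c-5p were higher at an unadjusted p under 0.05 against 6.86% of probes, and against day 20 miR-181a-5p alone was, against 2.45%. The adjusted test called 0% of the panel in both comparisons and in the 3 pairs among days 14, 17 and 20. In those 3 pairs no member reached an unadjusted p of 0.05, against 2.45% of probes for day 17 minus day 14, 6.37% for day 20 minus day 14 and 0.49% for day 20 minus day 17. Over the 4 days together miR-181a-5p had an unadjusted p of 0.0087 by limma's F test (adjusted p = 0.484), against 8.33% of probes under 0.05 and 0% called. No member had all 4 day 23 samples above all 4 of day 14, which 0.98% of the panel had.

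**Figure D3:**
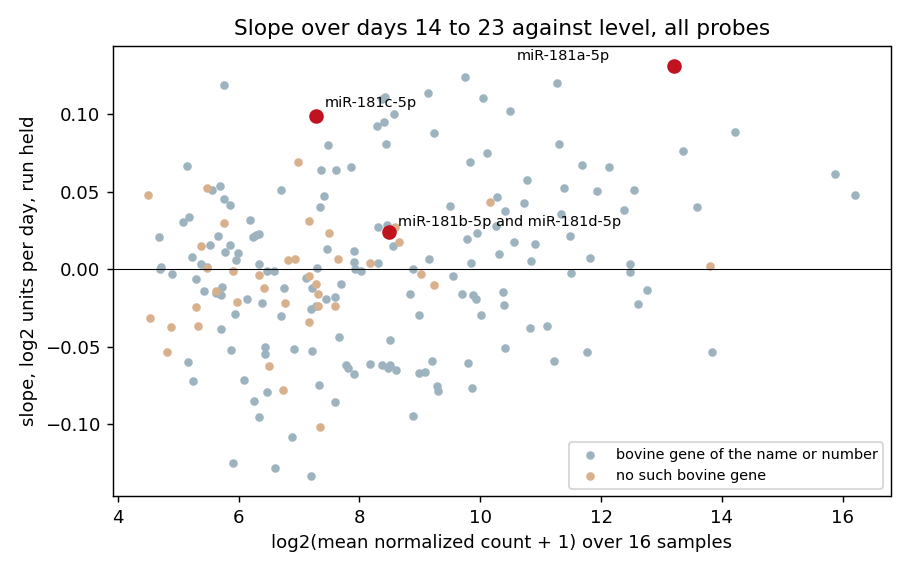
Slope over days (log2 units per day, run held) against log2 mean level for all 204 probes. Red points are the miR-181 family; blue-grey and tan points are other probes with and without a bovine gene of that name or number. miR-181a-5p has the steepest upward slope, 0.131, and miR-181c-5p is 11th.

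The ratio of miR-181a-5p to the miR-181b-5p+miR-181d-5p probe rose over the days. A factor that scales a whole sample cancels in a ratio of its probes, whereas an added or subtracted background does not. Whether the deposited values hold such a term is not known. Quantile normalization is no single factor per sample and need not cancel. After it the slopes per day were 0.105 (miR-181a-5p), 0.045 (miR-181b-5p+miR-181d-5p) and 0.107 (miR-181c-5p), against 0.131, 0.024 and 0.099 before. miR-181a-5p thus lay closer to the shared probe and no longer above miR-181c-5p. Ratios were not tested on quantile-normalized values. On day 14 the ratios were 16.7, 23.1, 20.7 and 15.4 for replicates 1 to 4, and on day 23 they were 33.7, 54.0, 28.4 and 42.5, so that all 4 day 23 samples lay above all 4 day 14 samples. On day 17 they were 19.3, 32.6, 28.7 and 15.2 and on day 20 18.8, 32.6, 32.1 and 17.3, which overlap both other days. Day 14 had a mean ratio of 18.9 ± 3.56 (SD, n = 4 each day), day 17 of 24.0 ± 8.10, day 20 of 25.2 ± 8.28 and day 23 of 39.7 ± 11.2. A rising ratio is not particular to this pair of probes. In the deposited values the slope of miR-181a-5p was the steepest upward of all 204, so its log2 ratio to any other probe has an upward slope there. The median slope of all probes was 0.00090 per day, against 0.024 for the miR-181b-5p+miR-181d-5p probe. How many other probes give such a separation of days in their ratio to miR-181a-5p was not counted.

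The slope of this log2 ratio of miR-181a-5p to the miR-181b-5p+miR-181d-5p probe was 0.107 per day. By exact two-sided permutation of day labels within runs, p = 0.0062, and 0.0372 after adjustment over the 6 ratio tests made. In the same exact test the slope of miR-181a-5p itself had a smaller unadjusted p, 0.0040. That slope was judged by limma with adjustment over 204 probes and was not called, so the calls rest on unlike sets of tests. The call of the ratio therefore does not show that its change is better supported than that of miR-181a-5p. The slope of the log2 ratio was 0.112 in run 1 alone (exact p = 0.0532) and 0.102 in run 2 alone (exact p = 0.0754), each with 2520 arrangements. The call of the ratio did not hold in every subset. With each sample left out in turn the slope stayed between 0.090 and 0.117 and the unadjusted exact p between 0.0031 and 0.0204, but after adjustment over the 6 tests it was under 0.05 in 8 of 16 cases. The adjusted exact p was 0.0973 and 0.0868 without day 14 replicate 1 or 4, 0.0558 without day 17 replicate 1, and 0.0563 and 0.0538 without day 20 replicate 2 or 3. It was 0.0541, 0.111 and 0.110 without day 23 replicate 1, 2 or 4. With 50 normalized counts added to every value the slope was 0.110 (adjusted exact p = 0.0120), and with 50 subtracted it was 0.101 (adjusted exact p = 0.0738). Day 23 exceeded day 14 by 1.04 log2 units, or 2.06-fold (exact p = 0.0556, the smallest that 36 arrangements allow, adjusted p = 0.09996), with 1.12 in run 1 and 0.96 in run 2. In run 2, where the lower probe stood well above the low-signal reference, the mean ratio was 18.02 on day 14 and 35.5 on day 23, and in run 1 it was 19.9 and 43.8. The summed signal of the family followed miR-181a-5p, and the share of miR-181b-5p+miR-181d-5p in it averaged 5.04% on day 14 and 2.56% on day 23.

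**Figure D4:**
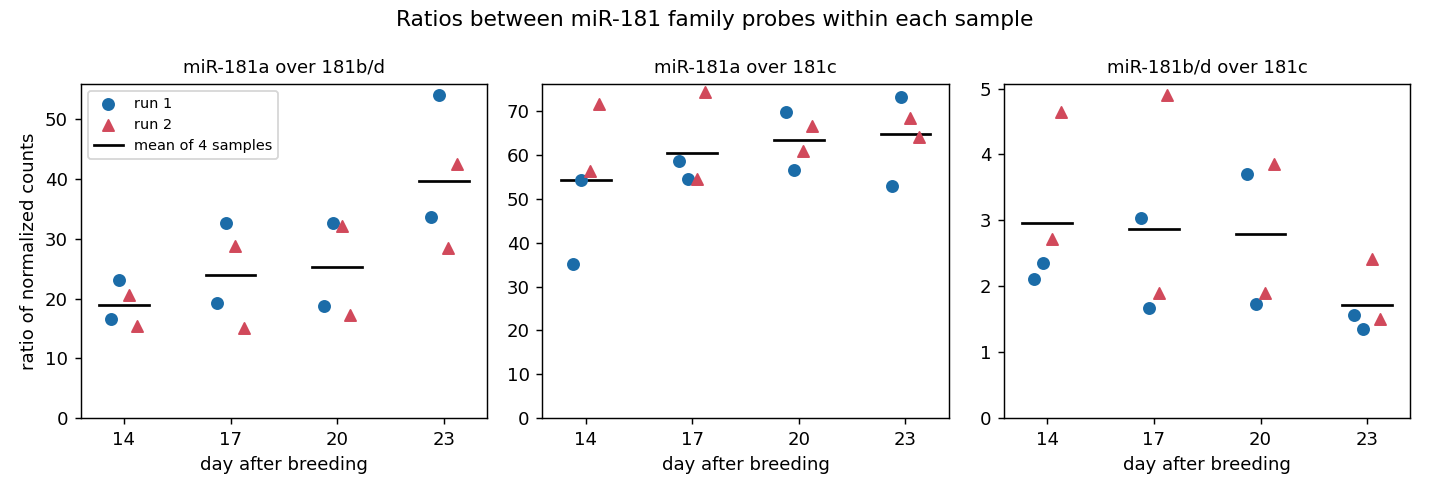
Ratios of normalized counts between the miR-181 family probes within each of 16 samples, by day; blue circles are run 1, red triangles run 2, and bars are means of the 4 samples of a day. The ratio of miR-181a to the miR-181b/d probe is 15.4 to 23.1 on day 14 and 28.4 to 54.0 on day 23; the ratio of miR-181a to miR-181c has daily means of 54.3 to 64.7.

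The ratio of miR-181a-5p to miR-181c-5p varied least. Its mean over 16 samples was 60.7 ± 10.1, a coefficient of variation of 16.6%, against 40.3% for the ratio to the miR-181b-5p+miR-181d-5p probe. All but 1 sample lay between 52.9 and 74.3. The exception was day 14 replicate 1 at 35.04, the sample with the lowest column total and the highest low-signal reference. Daily means were 54.3 ± 14.96 (SD, n = 4), 60.5 ± 9.39, 63.4 ± 5.91 and 64.7 ± 8.67. The slope of the log2 ratio was 0.032 per day (exact permutation p = 0.0833, adjusted p = 0.09996), at 0.057 in run 1 and 0.0069 in run 2. It was 0.055 with 50 normalized counts added to every value (adjusted exact p = 0.0120) and -0.018 with 50 subtracted (adjusted exact p = 0.623), so its sign and its side of the threshold both moved with a background term. Unadjusted, it was under 0.05 without day 14 replicate 4 (0.042 per day, exact p = 0.0313) or day 23 replicate 1 (0.039 per day, exact p = 0.0443). Day 23 minus day 14 was 0.29 log2 units (exact permutation p = 0.333).

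The ratio of the miR-181b-5p+miR-181d-5p probe to miR-181c-5p was lowest on day 23. Its values were 2.10, 2.35, 2.72 and 4.65 on day 14 and 1.57, 1.36, 2.41 and 1.51 on day 23, so that 3 of 4 day 23 samples lay below all day 14 samples. The day 17 and day 20 means, 2.87 ± 1.47 (SD, n = 4) and 2.80 ± 1.14, were close to the 2.96 ± 1.16 of day 14, and the day 23 mean was 1.71 ± 0.47. The slope of the log2 ratio was -0.075 per day (exact permutation p = 0.0772, adjusted p = 0.09996) and day 23 minus day 14 was -0.75 (exact permutation p = 0.0556, the smallest possible, adjusted p = 0.09996), so neither was called. Without day 20 replicate 1 the slope was -0.084 with an unadjusted exact permutation p = 0.0300.

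Levels of 2 of the 3 members differed between the NanoString runs. With day held, run 2 exceeded run 1 by 0.89 log2 units for the miR-181b-5p+miR-181d-5p probe (SE 0.22, limma adjusted p = 0.0011) and by 0.70 for miR-181a-5p (SE 0.23, adjusted p = 0.0096). For miR-181c-5p the difference was 0.49 (SE 0.25, adjusted p = 0.0705) and was not called. Thus 2 of 3 members were called higher in run 2, against 66.2% of all probes, whose median difference was 0.74. A higher level in run 2 was therefore not particular to the family. Since each run held 2 samples of every day, the day comparisons are not confounded with run. Column totals moved with the members as well: after removal of run means, log2 column total correlated with miR-181a-5p at Pearson r = 0.64, with the miR-181b-5p+miR-181d-5p probe at 0.64 and with miR-181c-5p at 0.38 over the 16 samples, in which the members are themselves a small part of the total. With the log2 ratio of miR-181a-5p to the miR-181b-5p+miR-181d-5p probe it correlated at 0.31. Scaled to the same total, the day 23 minus day 14 difference of miR-181a-5p was 0.96 (adjusted p = 0.0628), and its slope was 0.097 (adjusted p = 0.0435).

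Across samples, miR-181a-5p and miR-181c-5p varied together. After subtraction of each run's mean, their log2 values correlated at Pearson r = 0.93 over 16 samples (0.89 in run 1 and 0.98 in run 2), and 3 other probes of the panel stood closer to miR-181a-5p. With the miR-181b-5p+miR-181d-5p probe, miR-181a-5p correlated at 0.57 and miR-181c-5p at 0.44. The median over all probes outside the family was -0.013 for miR-181a-5p. These correlations describe samples that share days, runs and scaling, and whether the miR-181c-5p probe counts some miR-181a-5p was not tested; its signal was 1.35% to 2.85% of that of miR-181a-5p.

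**Figure D5:**
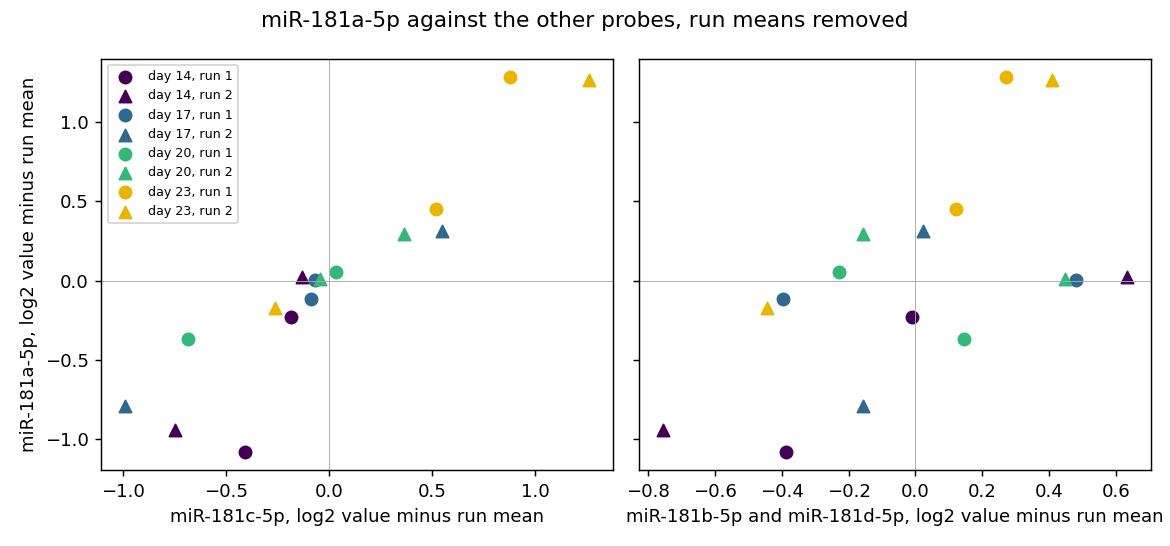
Log2 value minus run mean of miR-181a-5p against miR-181c-5p (left) and against the miR-181b-5p+miR-181d-5p probe (right), 1 point per sample, coloured by day and shaped by run. The left panel forms a narrow band (r = 0.93 over 16 samples) and the right panel a broad one (r = 0.57).

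Outside the family, the probe most like miR-181a-5p in this measure was miR-331-3p (r = 0.94), which averaged 859 ± 494 normalized counts (SD, n = 16) and had a slope of 0.124 per day (limma adjusted p = 0.0830). It was followed by miR-1306-5p (r = 0.94, slope 0.080) and the probe miR-365a-3p+miR-365b-3p (r = 0.93, slope 0.120). Next were miR-423-3p (r = 0.92, slope 0.088) and miR-423-5p (r = 0.92, slope 0.102), the opposite arms of a single hairpin precursor. None of these 5 slopes was called. The probes closest to miR-181c-5p were miR-331-3p (r = 0.96), miR-423-5p (r = 0.91) and miR-365a-3p+miR-365b-3p (r = 0.91), so all 3 were also among the 5 nearest miR-181a-5p. The probes closest to miR-181b-5p+miR-181d-5p were others, at lower likeness: miR-361-5p (r = 0.81) and miR-361-3p (r = 0.77), again arms of a single hairpin, and miR-652-3p (r = 0.76). The slopes of miR-361-5p and miR-361-3p were 0.038 and 0.064 per day and that of miR-652-3p was 0.110, none called.

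The RNA came from whole glands, in which fewer cells of a type and less miRNA per cell cannot be told apart. Of 26 miRNAs listed as markers of other cell types, 18 probes were measured and 0 were called by limma, for the slope or for day 23 against day 14. The same test called 0.49% of the panel in each, so 0 of 18 is near that share and does not show unchanged markers. For day 23 against day 14, 2 leukocyte probes, the erythrocyte probe and 1 of the smooth muscle list had an unadjusted limma p under 0.05. No endothelial or epithelial probe had, and the share of the panel was 21.1%. The summed level of the 6 leukocyte markers was 997 to 4169 normalized counts on day 14 and 1126 to 1940 on day 23, with a median difference of -0.41 and with 2 of 6 above 0. Its most abundant members, miR-150-5p of mature lymphocytes and miR-155-5p of activated leukocytes, differed by -0.18 (SE 0.43) and -0.75 (SE 0.27, adjusted p = 0.124). The 5 endothelial probes summed to 9094 to 34293 on day 14 and 9105 to 19787 on day 23, with a median difference of -0.36 and 1 of 5 above 0. The highest were miR-126-3p, the miRNA most typical of endothelium, at -0.46 (SE 0.31), and miR-10b-5p at -0.13 (SE 0.29).

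Smooth muscle, pericyte and fibroblast markers, 5 probes, summed to 6496 to 28168 on day 14 and 10013 to 18908 on day 23, with a median of 0.10 and 3 of 5 above 0. The most abundant were the probe miR-199a-3p+miR-199b-3p at -0.18 (SE 0.34) and miR-145-5p at 0.50 (SE 0.24, adjusted p = 0.228). Of the erythrocyte markers miR-451a was measured, at 206 to 1877 on day 14 and 132 to 367 on day 23 (-1.04, SE 0.45, limma adjusted p = 0.176). Of the epithelial markers miR-141-3p was measured, at 42.8 to 56.9 on day 14 and 45.7 to 87.3 on day 23. No marker was at 0, which does not by itself show signal above background. The epithelial probe, at 37.1 to 87.3 over all samples, lay below the low-signal reference of 124 to 258 in every run 1 sample. The logarithms of the 5 list sums were correlated with miR-181a-5p, run means removed. The values were -0.056 for leukocytes, -0.12 for the erythrocyte probe, -0.43 for endothelium and -0.069 for smooth muscle and fibroblasts. For the epithelial probe it was 0.49, which rests on that low signal. Their part in the values of the miR-181 family was not tested.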

How the data were processed

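Per the labels, RNA from 16 bovine corpora lutea was profiled by NanoString in 2 runs. The deposited table holds normalized counts, a non-negative signal for 204 probes made by the authors; no source used here states the counting software, background correction, normalization or filters. Columns were matched to samples by title, and 0 other sample columns were present. Low values lay on evenly spaced steps with a column-specific offset (100% of values under 150 within 0.1 step), so whole counts could not be recovered and tests for counts were not applied; intervals for counting error are left out.

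Values were transformed as log2(value + 1), the scale of all differences, on which the change of a weak probe is understated. Probes with at least 20 in at least 4 samples were kept; all 204 passed. limma 3.58.1 in R 4.3.3 fitted every probe over all 16 samples with day and run (11 residual degrees of freedom, variance trend), two-sided, with Benjamini-Hochberg adjustment over all probes within a contrast; an adjusted p under 0.05 was called. Slopes used day as a number. Ratios were tested by exact permutation of days within runs (Python 3.11.15), adjusted over 6 tests. Tested on simulated data (204 probes, day 23 against day 14), the fit found 58.9% of probes changed by 1 log2 unit and 99% of those changed by 2. False calls were 20 of 491 and 40 of 832. Each simulated set had 40 changed probes, independent of each other and changing along a straight line over the days. The shares found hold for that setting and can be too high for these data, where 1 probe was called. Alternatives covered pseudocount, filter, scaling, run, replicate block, variance trend and each sample left out.

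Named probes were the 3 members; the 5 most like miR-181a-5p, the 3 most like each other member and the 3 least like miR-181a-5p by Pearson r of run-centred log2 values; and the 2 most abundant of each marker list. The members, lists and tests were chosen with earlier results of these data known. Same-numbered samples deviated together from their day means in 24 of 24 pairs (r 0.19 to 0.81), which follows from replicates 1 and 2 being run 1; with run also removed, 9 of 24 pairs were above 0.1 (r -0.60 to 0.57). Names were set against RefSeq's ARS-UCD2.0 table of 1032 miRNA genes. No miRNA sequences were at hand, and none are printed.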

Additional observations from a re-analysis of the deposited data

Results flagged for a closer look

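Of 24 groups of 4 samples examined (each probe and each ratio on each day), 2 held a sample far from the other 3. miR-181a-5p on day 17 had 13130 normalized counts in replicate 3, of run 2, while the other 3 samples held 5984 to 6515; the gap was 0.926 of the group's range. In the same sample miR-181c-5p was also the highest of its day, at 241. The miR-181b-5p+miR-181d-5p probe on day 14 had 699 normalized counts in replicate 4, of run 2, while the other 3 held 185 to 266 (gap 0.842 of the range). In that sample miR-181a-5p was the highest of its day as well, at 10745. Without day 14 replicate 4 the slope of the log2 ratio of miR-181a-5p to the miR-181b-5p+miR-181d-5p probe was 0.103 per day and no longer called (exact permutation p = 0.0145, 0.0868 adjusted over 6 tests). Without day 17 replicate 3 it was 0.111 and called (exact permutation p = 0.0055, adjusted 0.0331). Each day pools samples of 2 runs, and both samples described here are of run 2, in which these 2 probes were higher by 0.70 and 0.89 log2 units; the rate at which chance flags a group, about 1 in 20, is for 4 values of a single population and takes no account of run. On log2 values with run means removed, the largest gap in any of the 12 groups of single probes was 0.662 of the range, and no group was singled out.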

How the results depend on the processing

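The upward values of miR-181a-5p and miR-181c-5p for the slope and for day 23 against day 14 kept their direction under every alternative run. With limma, miR-181a-5p was called for day 23 against day 14 when samples were centred on the median probe (1.34) or with run 1 alone (1.52), and for the slope with a mean value of at least 100 required (0.131, 140 probes tested), median centring (0.139), scaling to the same total (0.097) or run 1 alone (0.148). With run 1 alone it was also called for day 23 against day 20 (1.02) and miR-181c-5p for day 23 against day 14 (0.99). Exact permutation p-values, which are not adjusted, were under 0.05 for the slopes of miR-181a-5p (0.131) and miR-181c-5p (0.099). Leaving out each sample gave 1.05 to 1.58 and 0.108 to 0.156 for miR-181a-5p and 0.73 to 1.28 for day 23 against day 14 of miR-181c-5p. The slope of the ratio of miR-181a-5p to the miR-181b-5p+miR-181d-5p probe was 0.112 in run 1 and 0.102 in run 2, neither under 0.05 alone, where each run has 8 samples. With each sample left out it was 0.090 to 0.117 and lost its adjusted call in 8 of 16 cases, at 0.10004 and 0.103 without day 14 replicate 1 or 4, 0.104 without day 17 replicate 1, 0.106 and 0.104 without day 20 replicate 2 or 3, and 0.112, 0.090 and 0.095 without day 23 replicate 1, 2 or 4. With 50 normalized counts subtracted from every value it was 0.101 and not called. It was not tested after quantile normalization, where the slopes of its numerator and denominator lay closer, at 0.105 and 0.045. The slope of the ratio of miR-181a-5p to miR-181c-5p was 0.055 and called with 50 added, and -0.018 with 50 subtracted. These exact tests were added after seeing the data. Leaving out samples gave slopes of 0.015 to 0.042 for the ratio of miR-181a-5p to miR-181c-5p (0.039 without day 23 replicate 1) and -0.086 to -0.058 for the ratio of the miR-181b-5p+miR-181d-5p probe to miR-181c-5p.

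Signs turned for uncalled values. Scaled to the same total, the miR-181b-5p+miR-181d-5p probe had -0.029, -0.064 and -0.084 for days 17, 20 and 23 against day 14, -0.035 and -0.054 for days 20 and 23 against day 17, -0.020 for day 23 against day 20 and a slope of -0.0095, and miR-181c-5p had -0.034 for day 20 against day 17. With run 1 alone, day 20 minus day 17 was -0.10 for miR-181a-5p, -0.082 for the miR-181b-5p+miR-181d-5p probe and -0.25 for miR-181c-5p, which also had -0.030 for day 20 minus day 14. With run 2 alone the miR-181b-5p+miR-181d-5p probe had -0.0060 for day 17 minus day 14 and -0.16 for day 23 minus day 20. Leaving out each sample, that probe ran from -0.11 to 0.39, -0.046 to 0.46 and -0.0094 to 0.50 for days 17, 20 and 23 against day 14, -0.079 to 0.24 and -0.037 to 0.30 for days 20 and 23 against day 17, and -0.079 to 0.23 for day 23 against day 20. Day 20 minus day 17 ran from -0.091 to 0.31 for miR-181a-5p and -0.24 to 0.32 for miR-181c-5p, whose day 17 minus day 14 ran from -0.035 to 0.52.

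The number of probes called over the panel, 1 for day 23 against day 14 and 1 for the slope, depended on the setting. For day 23 against day 14 it was 6 with median centring, 2 with quantile normalization, 40 with run 1 alone, 0 to 10 with each sample left out, and 0 by limma without the run term, with run 2 alone or with the 8 samples alone (9, 19 and 42 at an unadjusted p under 0.05). For the slope it was 3 with the stricter filter, 20 with median centring (19 upward), 19 with equal totals (1 upward), 9 with quantile normalization, 9 with run 1 alone, 0 to 11 with each sample left out, and 0 by limma without the run term or with run 2 alone (13 and 28 unadjusted). With run 1 alone it was 5, 31, 1 and 4 for day 17 and day 20 against day 14, day 20 against day 17 and day 23 against day 20. With the replicate block in place of run, miR-181a-5p had an adjusted p of 0.0777 for day 23 against day 14 (1.26) and 0.0584 for the slope (0.131), and the block changed no call of a member. The cause of these changes was not tested.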

Other observations

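The probes least like miR-181a-5p had low signal and negative slopes, none of them called. miR-376a-3p, of the imprinted DLK1-DIO3 region, correlated with it at Pearson r = -0.84 over 16 samples with run means removed (slope -0.079 per day, limma adjusted p = 0.0830), miR-19a-3p, of the miR-17 to miR-92 cluster, at -0.82 (slope -0.125, adjusted p = 0.0830), and miR-376c-3p, of the same imprinted region, at -0.78 (slope -0.108, adjusted p = 0.0917). They averaged 88.2 ± 23.3, 59.4 ± 35.3 and 117 ± 75.7 normalized counts (SD, n = 16). Counted in steps of its column rather than in normalized counts, miR-181a-5p stood at 3173, 7356, 4440 and 6564 steps on day 14 for replicates 1 to 4 and at 8609, 9002, 12161 and 7659 on day 17. It stood at 7417, 7724, 7313 and 7890 on day 20 and at 12885, 11500, 7139 and 8712 on day 23. In this measure both day 23 samples were the highest of run 1, whereas in run 2 the highest sample was of day 17 and 1 day 23 sample lay below those of day 17 and day 20. Steps are not scaled between columns, so this order also holds differences in depth. As a share of the column's total, the highest run 2 sample was day 23 replicate 4 at 4.74%, against 3.19% for day 17 replicate 3.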
